A study of Papio anubis and Macaca fascicularis and Castor canadensis with 48 samples.

Results

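The livers of olive baboon (Papio anubis) and long-tailed macaque (Macaca fascicularis) were compared by bulk RNA sequencing. They make up 12 of the 48 libraries of a series on gene expression and longevity across 8 mammal species, with 6 livers from each of the 2 monkeys, and they were selected from their column names. All 12 came from adult males that the labels describe as wild type and, in the protocol, as young adults. They belong to the same collection, made at a primate research center, and no treatment is given. Libraries are numbered by replicate, and nothing in the labels says whether a liver and a kidney with the same number came from the same animal. P-values measure the spread between these samples. The main interaction test between liver and kidney treats all libraries as independent, and a run that paired them by number is given near the end.

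The liver secretes most plasma proteins, detoxifies ammonia and drugs, makes bile acids and buffers blood glucose and lipids. Hepatocytes supply most of its RNA, and a small number of transcripts for secreted proteins usually takes a large share of the reads. A table that compares species can count a gene only where reads of each species reach a gene model tied to the shared ID. Here the IDs are mouse Ensembl gene IDs. The labels do not say how primate reads were tied to them. A difference in RNA level and a difference in gene models cannot be told apart from liver counts alone.

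The files do not pair these IDs with gene names, and 0 of the 16816 IDs were found in the RefSeq gene table of baboon. Genes are therefore described in groups by their measured pattern. 4 IDs are printed, 2 that rose and 2 that fell in baboon, and no gene is given a name or a role. For the same reason the labelled tissue could not be checked against named hepatocyte or other cell type markers. A check by pattern was possible. Of the genes tested, 196 were liver-enriched in other species, with CPM + 1 at least 4 times higher in liver than in brain of beaver and white-footed mouse and than in kidney of bear. CPM is the count after each library is brought to a common total, and in the monkey livers and kidneys it was also scaled by TMM factors. Exceptions without TMM factors are the number of genes at 1 CPM or more and the highest level of a species over its other organs. The median level of these genes in the 12 monkey livers was 315 TMM-scaled CPM, against 12.3 for all genes tested.

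The 2 sets of livers were sequenced to similar depth. Totals ran from 24.1 to 26.4 M counts in baboon and from 21.9 to 26.8 M in macaque, and the means differed by 1.17 M (exact two-sided permutation test, adjusted p = 0.438 over 3 tests, 6 against 6). The share of counts in the top 10 genes was 33.1% ± 4.29 for baboon and 30.8% ± 2.57 for macaque (SD, n = 6 each; exact permutation adjusted p = 0.438). The number of genes at 1 CPM or more was 10914 ± 105 in baboon and 10904 ± 177 in macaque (exact permutation adjusted p = 0.931). Of the 10 most counted genes of each species, 7 were the same, and of the 50 most counted, 45.

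Species was the main axis of variation. The first principal component of log2 CPM held 49.7% of the variance and put the baboon livers between -55.5 and -47.4 and the macaque livers between 44.7 and 58.6. The second held 10.9%. On it macaque livers 1 and 2 scored 37.3 and 53.8, and the other 4 macaque livers scored between -28.9 and -20.6. The third held 9.3%, with baboon livers 5 and 6 at 42.2 and 44.4 and the other 4 baboon livers between -32.9 and -6.95. These 4 libraries stood apart within their own species. In baboon livers 5 and 6 the most counted gene held 14.0% and 12.4% of the counts, against 20.7% to 24.3% in the other baboon livers. In macaque liver 2 it held 11.5%, against 17.3% to 20.1% in the other macaque livers. Values without them are given at the end.

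**Figure D1:**
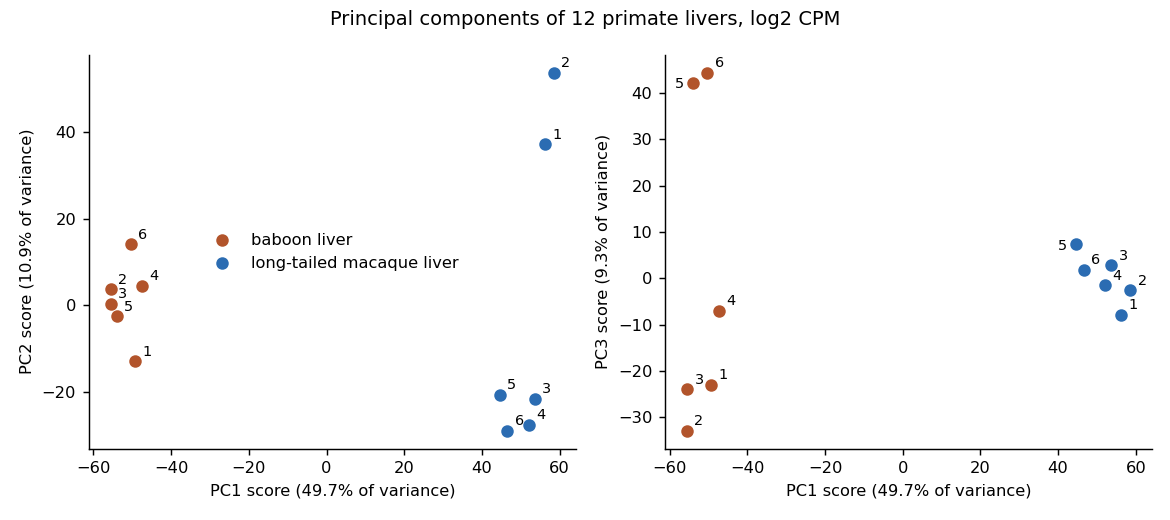
Principal component scores of the 12 livers from log2 CPM of 11948 genes, with the first component on each horizontal axis and the second (left) or the third (right) on the vertical axis; points are libraries numbered by replicate. The species separate on the first component, macaque livers 1 and 2 lie apart on the second and baboon livers 5 and 6 on the third.

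The correlation of log2 CPM across genes was 0.883 at the median of the 36 pairs of a baboon and a macaque liver (0.864 to 0.900). It was 0.954 at the median of the 15 pairs within baboon and 0.949 within macaque, and no pair within a species lay below 0.933. Genes are not independent replicates, and these values carry no test. Among the 6093 genes at 10 TMM-scaled CPM or more in both species, the median SD of log2 CPM over 6 livers was 0.21 in baboon and 0.26 in macaque. The median absolute log2 fold change between the species for the same genes was 0.24. For a typical well-counted gene the species difference was thus about as large as the spread between livers of the same species.

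Of 11948 genes tested, 24.8% differed between the livers at an adjusted p under 0.05 (edgeR quasi-likelihood test, Benjamini-Hochberg). 12.3% were higher in baboon and 12.5% were lower. The called genes were divided by the ratio of the species means on TMM-scaled CPM. A gene was classed as near-total when its libraries did not overlap between the species, its mean was at least 10 in the higher species and the ratio was at least 32. A called gene with a ratio of at least 2 that was not near-total was classed as graded. Near-total genes numbered 43, or 0.36% of the genes tested, with 23 higher in baboon (0.193%) and 20 lower (0.167%). Graded genes numbered 1195, or 10% of the genes tested, with 661 higher in baboon (5.53%) and 534 lower (4.47%). Of the graded genes, 42 had a ratio of 32 or more but missed the level or the overlap condition of the near-total class. Libraries did not overlap between the species for 12.3% of all genes tested. The remaining 1723 called genes, 14.4%, differed by a ratio under 2. These classes use the liver values themselves, so their sizes in liver are a description. The near-total gene closest to the threshold had a ratio of 35.2 and the gene just outside it 31.9. Between ratios of 8 and 16 lay 23 genes that met the other conditions, with 13 between 16 and 32, 10 between 32 and 64, and 33 at 64 or more. The counts thus fell with size over the bins that each span a doubling of the ratio. The last bin has no upper limit, so its count cannot be compared with theirs.

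The near-total genes varied widely in level above the minimum of 10 that the class requires. In the higher species their means ran from 11.7 to 6536 TMM-scaled CPM with a median of 54.7. In the lower species 36 of the 43 had a mean under 1, and 7 had no count in any of the 6 livers. The highest mean in the lower species was 17.9. Together the 23 genes higher in baboon held 1.43% ± 0.217 of the counts of the baboon livers and 0.00279% ± 0.000318 of those of the macaque livers (SD, n = 6 each). The 20 genes lower in baboon held 0.00359% ± 0.00165 in baboon and 0.311% ± 0.0425 in macaque. The baboon livers ranged from 1.06% to 1.65% for the first set and the macaque livers from 0.243% to 0.348% for the second. Genes near 0 were thus found in both species, and those low in macaque held the larger share of counts in the other species. Much of that share came from the genes with 6536 and 3147 TMM-scaled CPM in baboon liver.

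**Figure D2:**
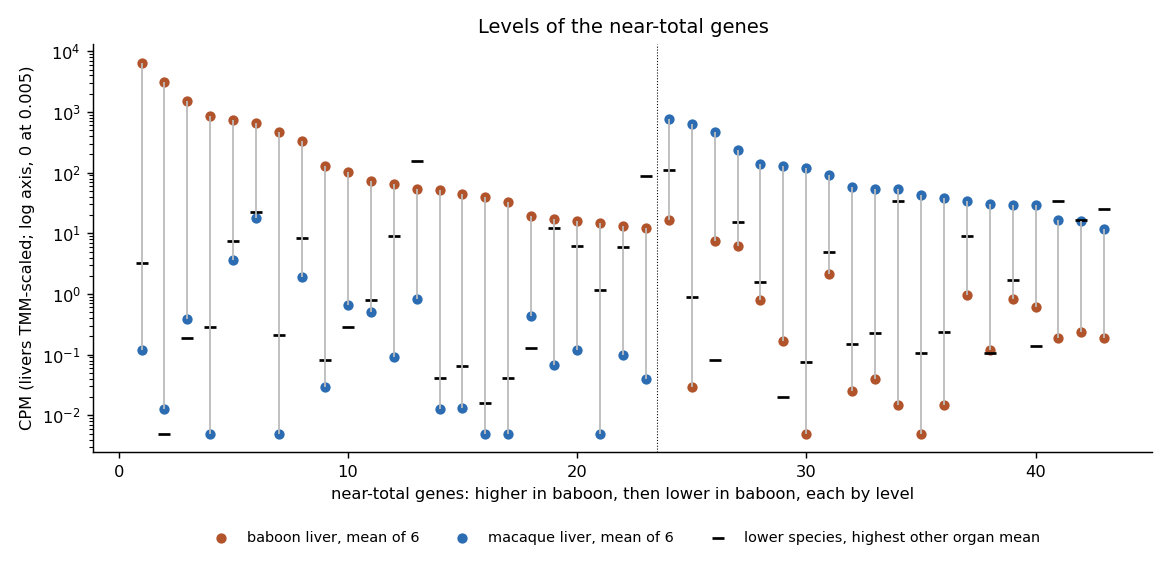
Mean level of each of the 43 near-total genes in the 6 baboon and 6 macaque livers (TMM-scaled CPM, log axis), with black ticks for the highest mean CPM of the lower species in its other organs (kidney, and brain or cerebellum). Most lower means lie under 1 CPM, and the ticks lie under 1 CPM for 22 genes, between 1 and 10 for 11 and at 10 or more for 10.

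Kidney libraries of the same species, 6 from baboon and 5 from macaque, had no part in choosing these classes. Kidney shares with liver a set of broadly used genes and has its own transport genes, so it gives a second organ in which each ID can be counted. In kidney, 30.9% of 13082 genes tested were called between the species, and 0.397% were near-total by the same rule. Of the 43 genes that were near-total in liver, 38 could be tested in kidney. Of these, 26 were near-total there in the same direction, and 7 more were called in the same direction but missed the ratio or the level of the class. Another 3 were not called in kidney and 2 were called in the opposite direction. Of the 38 genes, 14 had a species difference that itself differed between the organs (edgeR interaction test, adjusted p under 0.05), against 10% of all genes tested for it. The interaction test contains the liver values that chose these genes, which favours such calls, so the 2 shares are a description.

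The graded genes were followed into kidney in the same way. Of 1195 graded genes, 1108 were tested in kidney, and 549 of these (49.5%) were called in the same direction, 48 in the opposite direction and 511 not at all. Their median log2 fold change, taken in the direction of the liver, was 1.57 in liver and 0.62 in kidney. For near-total genes the same medians were 8.01 and 7.33. By ratio in liver, the share called in kidney in the same direction was 42.8% of 1717 genes under 2, 47.1% of 756 genes from 2 to 4, 47.6% of 208 genes from 4 to 8 and 65.3% of 118 genes from 8 to 32. It was 65.4% of 26 genes at 32 or more that missed another condition of the class, and 86.8% of the 38 near-total genes. Among genes not called in liver it was 16.7% of 8776. The difference between these shares was not tested, and the classes also differ in the level and overlap conditions that define them. The species difference differed between the organs for 33.1% of the genes from 2 to 4, 49.0% of those from 4 to 8 and 46.6% of those from 8 to 32. The genes were chosen by their liver difference, and the kidney values are not chosen in this way. Such a choice favours a smaller difference in kidney than in liver. The interaction test also contains the liver values that set the groups, which favours calls there. These medians and interaction shares are thus a description.

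**Figure D3:**
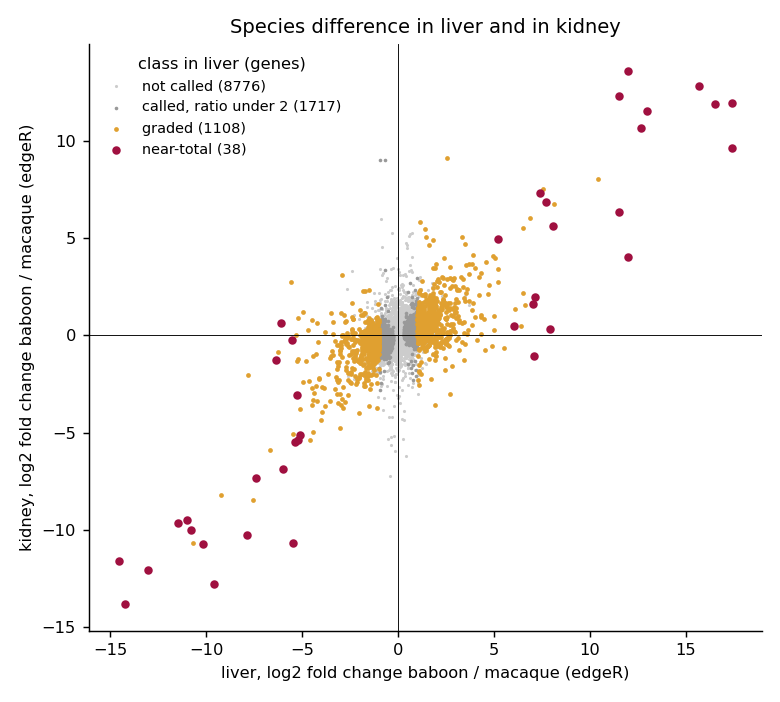
Log2 fold change of baboon over macaque in liver (horizontal) and kidney (vertical) for the 11639 genes tested in both organs, coloured by class in liver. Near-total genes lie along the diagonal with a few near the horizontal axis, while graded genes scatter between the diagonal and that axis.

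**Figure D4:**
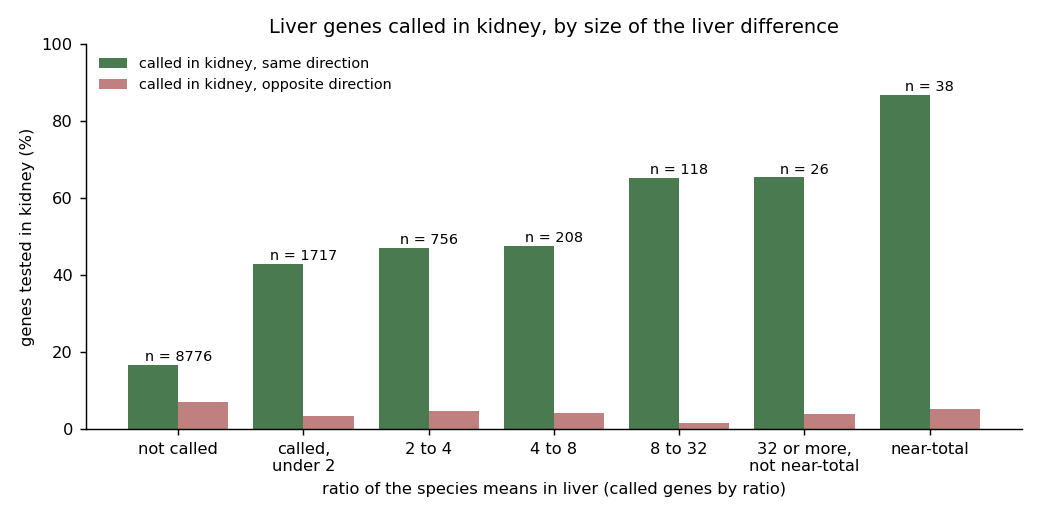
Share of genes called in kidney in the same (green) or the opposite (red) direction as in liver, by the ratio of the species means in liver, with the number of genes tested in kidney above each pair of bars. The share in the same direction runs from 16.7% for genes not called in liver to 86.8% for near-total genes.

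The near-total genes were thus split into 3 sets by their kidney counts. The kidney differences and the interaction calls of these sets partly follow from that split. The first set holds the 26 genes that were near-total in both organs, 11 higher in baboon and 15 lower. Their median log2 difference was 10.89 in liver and 10.47 in kidney. The smallest ratio in kidney was 35.03, where the rule requires at least 32. In the higher species 25 of the 26 had a higher level in kidney than in liver, on the scale of each organ's own fit. The share over all genes was not computed, and the rule requires at least 10 in kidney, so this is not read as a trait of the set. In its 6 livers the higher species was steady, with a median SD of 0.28 on the log2 scale. The species difference was called different between organs for 4 of the 26. Another gene, with no count in the macaque livers, had an interaction of 5.89 on the log2 scale and was not called (edgeR interaction adjusted p = 0.0682). In the lower species 15 of the 26 had under 1 CPM in the kidney and in the brain or cerebellum as well, 8 had between 1 and 10 and 3 had 10 or more in at least 1 of those organs. Baboon gave brain and macaque gave cerebellum, so levels in neural tissue come from different regions.

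The second set holds the 12 genes that could be tested in kidney and were not near-total there, 8 higher in baboon and 4 lower. Their median log2 difference was 6.71 in liver and 1.45 in kidney. The species difference was called different between the organs for 10 of the 12, which choosing genes not near-total in kidney favours. In the lower species 7 of the 12 were counted at 10 CPM or more in another organ. The gene of this set with the highest macaque liver level had 769 TMM-scaled CPM in macaque liver and 16.8 in baboon liver, but 127 and 108 in kidney. Another had 0.838 in macaque liver and 54.7 in baboon liver, and 157 and 216 in kidney. One more had 0.234 in baboon liver against 16.2 in macaque liver, while in kidney baboon had the higher level, 15.9 against 10.2. Other genes of the set kept a large difference in kidney. A gene with 669 in baboon liver and 17.9 in macaque liver had 304 and 9.63 in kidney, a log2 fold change of 4.98, and its species difference was not called different between the organs (edgeR interaction adjusted p = 0.604). A gene with 1534 in baboon liver and 0.381 in macaque liver had 3.24 and 0.188 in kidney, so its kidney level was low in both species. ENSMUSG00000058260, described further on, belongs to this set because its baboon kidney level of 5.49 missed the minimum. In their higher species these 12 genes varied more between livers than the first set, with a median SD of 0.72 on the log2 scale. That difference in spread was not tested.

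The third set holds 5 genes that passed the filter on low counts in liver and did not pass it in kidney, 4 higher in baboon and 1 lower. The gene that was lower had 473 TMM-scaled CPM in macaque liver and 7.61 in baboon liver, and at most 0.311 CPM in the other organs of macaque. For such genes kidney offers no separate test of the species difference. In the fit of all 23 libraries, 1 of the 5 had a species difference called different between the organs. Its interaction was 6.07 on the log2 scale (edgeR interaction adjusted p = 0.024), and choosing genes too low to test in kidney favours such a call.

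The livers of the other 6 species gave a further view of the same IDs. They include 9 libraries, with 1 or 2 per species, and no test was made on them. Of the 43 near-total genes, 9 had 10 CPM or more in the livers of all 6 species and 8 in none. The median number of species at that level was 5 for the 26 genes near-total in both organs, 2 for the 12 genes that were not and 0 for the 5 that were not tested in kidney. Graded genes with a mean of at least 10 in the higher monkey had a median of 3. The rule required the first of these sets to reach at least 10 in both liver and kidney of the higher monkey. The other sets were not held to this in kidney. The same number over all genes was not computed, so these medians are not read as a trait of a set.

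The organ pattern of the near-total genes was taken from beaver, bear and white-footed mouse as well. Kidney-enriched genes had CPM + 1 at least 4 times higher in kidney than in liver of bear, and brain-enriched genes, which were set aside first, the same for brain in beaver and white-footed mouse. Bear gave a single library of each organ, so the kidney-enriched group rests on a single pair of libraries. Of the 43, 12 were kidney-enriched. That is 27.9%, against 8.56% of all genes tested. No near-total gene was among the 196 liver-enriched genes, which made up 1.64% of the genes tested. These groups were defined after the liver results were known, and no test was made.

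Liver-enriched genes as a group differed between the monkeys about as often as other genes. Of the 196, 47 were called (24.0%), 24 higher and 23 lower in baboon, and 19 were graded. Their median absolute log2 fold change was 0.38, against 0.32 for all genes tested. Of 1023 kidney-enriched genes, 307 were called (30.01%), 118 higher and 189 lower, and 12 were near-total. Of 1771 brain-enriched genes, 447 were called (25.2%), 249 higher and 198 lower. Of 1340 genes that differed by less than 2 times between the organs in all 3 species, 362 were called (27.0%), 197 higher and 165 lower. Among genes with a mean of at least 10 TMM-scaled CPM, the called shares were 23.04% for liver-enriched, 30.7% for kidney-enriched, 25.5% for brain-enriched and 24.8% for all genes. The median log2 fold change lay between -0.06 and 0.03 in each of these groups. In bulk tissue, fewer cells of a type and less RNA per cell cannot be told apart.

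The gene with the largest absolute log2 fold change in each class and direction is given with its libraries, for graded genes only among those with a mean of at least 5 in the lower species and libraries that do not overlap. ENSMUSG00000058260, the near-total gene that ranked first among those higher in baboon, ran from 1702 TMM-scaled CPM in baboon liver 4 to 6334 in baboon liver 2, with a median of 2613. In macaque it had 0 in 5 livers and 0.0764 in liver 3, from 2 counts. All 6 baboon livers were high and the groups did not overlap. Since 2 counts stand for a single read pair here, the ratio was 247155 with an exact 95% Poisson counting interval of 42548 to 9363500 (edgeR adjusted p = 4.72e-10). In kidney it had a mean of 5.49 ± 3.57 in baboon (SD, n = 6) and no count in the 5 macaque kidneys, at least 84.3-fold higher against a floor of 6 counts over the group (edgeR adjusted p = 0.000271). Baboon kidney level was thus far under the baboon liver level, and macaque stayed at or near 0 in both organs. The interaction test gave an adjusted p of 0.994 in edgeR and 3.32e-08 in DESeq2, so with macaque at 0 the tools did not give the same call. Among other livers it had 15008 and 30828 CPM in the 2 chipmunk libraries, no count in beaver and at most 17.7 in the remaining species.

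ENSMUSG00000026354 ranked first among the near-total genes lower in baboon. It had no count in any baboon liver, and the macaque livers ran from 76.8 TMM-scaled CPM in liver 2 to 139 in liver 3, with a median of 125. All 6 macaque livers were high, and the groups did not overlap. The gene was at least 2909-fold lower in baboon, against a floor of 6 counts over the group (edgeR adjusted p = 2.57e-08). The kidneys had the same direction, with 253 ± 60.8 in macaque (SD, n = 5) and 0.0722 ± 0.0845 in baboon (n = 6). There the log2 fold change was -11.59 ± 0.37 SE with an adjusted p of 3.31e-10 by edgeR's quasi-likelihood test. It rests on 8 counts in all baboon kidneys together, and the SE was derived from the F statistic. Baboon brain had 0.0444 CPM and macaque cerebellum 0.351, so both neural tissues were low. Among other livers, beaver had 562 and 397 CPM and sugar glider 486 and 188, while chipmunk had no count in its 2 livers. The ID was thus near 0 in some other species too.

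ENSMUSG00000030882 ranked first among the graded genes higher in baboon that met these 2 limits, and some graded genes outside them had larger fold changes. The baboon livers ran from 83.5 TMM-scaled CPM in liver 6 to 455 in liver 2, with a median of 219.5. The macaque livers ran from 0.458 in liver 3 to 24.9 in liver 6, with a median of 5.35. The groups did not overlap, and the macaque livers spread widely. The log2 fold change was 4.93 ± 0.86 SE with an edgeR adjusted p of 0.00125. In kidney baboon had 14.1 ± 2.51 (SD, n = 6) and macaque 0.820 ± 0.452 (n = 5), and the log2 fold change was 4.08 ± 0.31 SE with an edgeR adjusted p of 1.53e-06. The species difference was not called different between the organs (edgeR interaction 0.83 on the log2 scale, adjusted p = 0.666). Without macaque liver 6 the liver log2 fold change was 5.78.

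ENSMUSG00000031765 ranked first among the graded genes lower in baboon within the same limits, and here too some graded genes outside them had larger fold changes. The baboon livers ran from 1.98 TMM-scaled CPM in liver 5 to 113 in liver 1, with a median of 30.3. The macaque livers ran from 198 in liver 3 to 2223 in liver 2, with a median of 761. Both groups varied by more than 10 times and did not overlap. The log2 fold change was -4.48 ± 0.85 SE with an edgeR adjusted p of 0.0021, and it was -5.12 without baboon liver 1, -3.99 without macaque liver 2 and -3.67 without macaque livers 1 and 2. In kidney baboon had 182 ± 110 (SD, n = 6) and macaque 1176 ± 551 (n = 5), and the log2 fold change was -2.69 ± 0.50 SE with an edgeR adjusted p of 0.00165. The interaction was -1.82 on the log2 scale (edgeR adjusted p = 0.264). Both printed graded genes had counts in every monkey liver and kidney, and the minimum of 5 set for printing largely fixed this for the livers. Of all 1195 graded genes, 9 had no count in the lower species and 455 had a mean under 1 there.

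**Figure D5:**
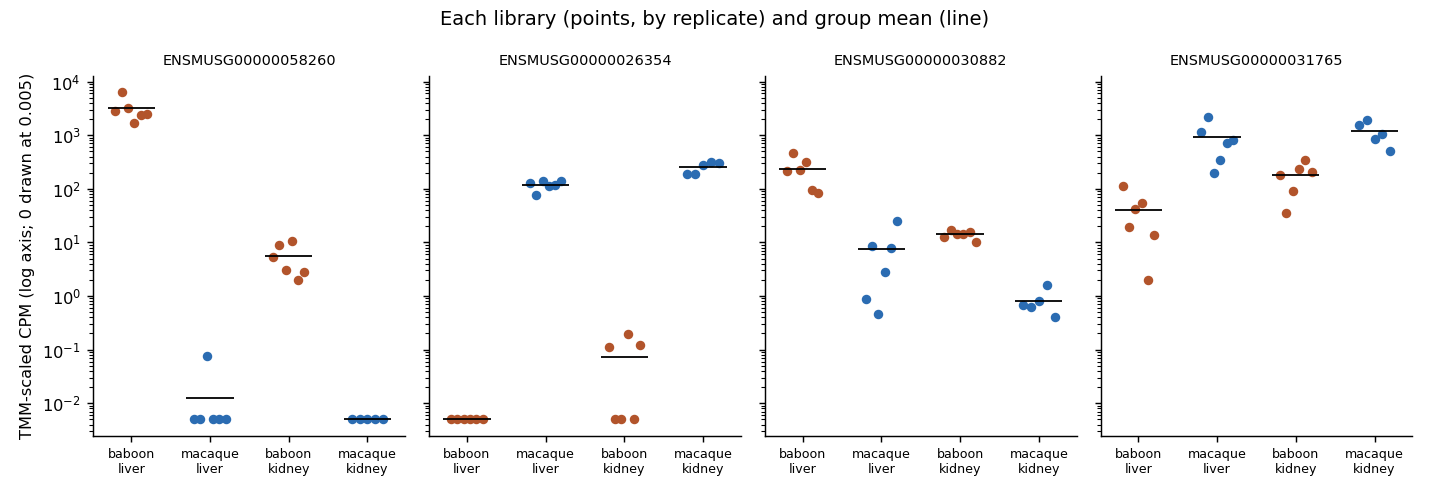
TMM-scaled CPM of 4 genes in each liver and kidney library (points, on a log axis, in order of replicate) with group means as lines. The 2 near-total genes lie at or near 0 in the lower species in both organs, and the 2 graded genes, printed only from those with at least 5 in the lower species in liver, have counts in every library.

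The genes that varied most within a species are given as a description. Among genes with a mean of at least 50 TMM-scaled CPM, the 4 with the largest SD of log2 CPM were taken in each species, and 1 of these 8 was called between the species, where 24.8% of all genes tested were. A large SD within a species also makes a call less likely. In baboon the second of them ran from 14.6 in liver 1 to 2493 in liver 6, with a median of 215, while the macaque livers had a median of 202. In macaque the third ran from 56.2 in liver 5 to 3155 in liver 2, with 127 to 424 in the baboon livers. The called gene was a near-total gene that ranked first in baboon, with 1.19 in liver 5, 252 in liver 2 and a median of 32.5. Its macaque livers had 0.216 to 0.880, so the lowest baboon liver lay just above the highest macaque liver. Of the 6093 genes at 10 or more in both species, 108 had an SD over 1 in baboon and 133 in macaque, and 43 of these were shared.

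The near-total class changed little when the libraries that stood apart were left out. Without macaque livers 1 and 2 there were 2834 called and 47 near-total genes, of which 42 were among the original 43. Without baboon livers 5 and 6 there were 2394 called and 44 near-total genes, of which 39 were among them. The number of genes near-total in liver and in kidney was 25 and 24, against 26 with all libraries, with the kidney classes left as they were.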

How the data were processed

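Counts were taken from the table of raw read counts that the authors deposited, with 16816 rows and no normalization. Per the submitters' processing notes, STAR and featureCounts were used. Tool versions, builds, annotation and strand setting were not given in the sources used here, so overlapping or near-identical genes could not be recognised. All columns matched a sample by name. Counts from 1 to 20 were even in 98.1% to 99.4% of cases per liver, so 2 counts were taken as 1 read pair. Floors and intervals cover counting error only.

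Total counts were 21.9 to 26.8 M per liver. The 12 livers were fitted in edgeR 4.0.16 (R 4.3.3) with TMM factors, filterByExpr, and the two-sided quasi-likelihood F test with Benjamini-Hochberg adjustment. The 11 kidneys were fitted alike, and all 23 libraries for the interaction. Each SE is the absolute log2 fold change divided by the square root of F. It restates the test and is not a separate estimate of error. A gene called at an adjusted p under 0.05 was classed by the ratio of mean TMM-scaled CPM, with a group at 0 set to 6 counts. The graded class was first written to end at a ratio of 32, and called genes above it that missed the near-total conditions were placed in it. Log2 values for SDs used a pseudocount of 1, and a prior count of 2 for components. The code of the fit was also run on simulated counts, and no result here rests on that run.

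The printed IDs are the first by absolute log2 fold change per class and direction, graded genes with at least 5 in the lower species and no overlap. A total of 47 gene lists, written as symbols, could not be matched. Members, lists, classes and tests were chosen with earlier results of these data known. Alternatives were DESeq2 1.42.0, other scalings, filters, thresholds, blocks and left-out libraries.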

Additional observations from a re-analysis of the deposited data

Results flagged for a closer look

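In 32 groups of 5 or 6 libraries, the highest or the lowest library was compared with the others by its gap to the nearest. Chance marks about 1 in 20 groups that were not chosen for their spread, and 4 were marked. That rate does not apply to the last 2 given here, a group otherwise at 0 and a gene chosen for its large spread. Macaque liver 2 had 11.5% of its counts in its most counted gene, against 17.3% to 20.1% in the other macaque livers. The same library had 76.8 TMM-scaled CPM of ENSMUSG00000026354, against 113 to 139 in the others. Macaque liver 3 had 0.0764 of ENSMUSG00000058260, from a single read pair, and the other 5 had none. Baboon liver 5 had 2.06 of the gene ranked 4 by spread in baboon, and the other baboon livers had 134 to 227. None of these marks was traced to a cause.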

How the results depend on the processing

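The near-total class held 43 genes with DESeq2, with upper-quartile or RLE factors and with no filter on low counts, and these were the same 43. With DESeq2, and with the replicate block below, levels, ratios and overlap came from the same TMM-scaled CPM. Only the calls could change there, so the same 43 say little about the class. It held 56 at a ratio of at least 16 and 33 at 64, where 12 rather than 20 were lower in baboon. A minimum of 50 TMM-scaled CPM left 25, with 14 higher and 11 lower, of which 15 were near-total in kidney. With all 48 libraries in the fit, 4967 genes were called (2317 higher, 2650 lower), 1906 were graded and 56 near-total. That fit tested more genes (15456). DESeq2 called 3548 genes in liver and edgeR 2961, of which 2958 were shared. Leaving out each replicate in turn gave 2479 to 2853 called genes in liver and 43 to 47 near-total genes. It gave 3498 to 3858 called in kidney and 1144 to 1424 interactions, and the 4 printed IDs kept their calls in liver and kidney. Leaving out each liver gave 25 to 26 genes near-total in both organs. Kidney classes were those of the fit with all 11 kidneys in every run, so left-out kidneys were not examined for this number. The difference in genes at 1 CPM or more ranged from -25.9 to 72.7 and changed sign in 4 of 12 such runs. A replicate block left 2272 called genes in liver with the same 43 near-total and 2952 in kidney. In these fits the block is a shared number only, since deviations of same-numbered baboon and macaque livers correlated at -0.10 to 0.07. For the interaction the block instead paired liver and kidney of the same number within each species. It gave 1415 interactions, of which 1078 were among the 1361 without a block. Between liver and kidney, each of 6 baboon and 5 macaque livers correlated best with the kidney of its own number (0.07 to 0.26 and 0.20 to 0.24), a hint from the data and not from the design. Leaving out the most counted gene, chosen after seeing the data like the runs without 2 libraries, gave 2959 called and 50 near-total genes. The gene lists and the fit without albumin were not run, since no ID could be matched to a name.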

Other observations

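A further 42 genes were called with a ratio of at least 32 but missed the level or the overlap condition of the near-total class. Of these, 26 could be tested in kidney, where 17 were called in the same direction, 1 in the opposite direction and 8 not at all. Their median log2 difference in the direction of the liver was 5.83 in liver and 2.30 in kidney.

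The share of genes called between the monkey livers changed little with expression level. It was 19.2% of 818 genes with a mean under 1 TMM-scaled CPM, 25.8% of 4462 genes from 1 to 10, 24.9% of 5749 from 10 to 100, 23.9% of 825 from 100 to 1000 and 26.6% of 94 genes at 1000 or more. The share of graded genes was 18.6%, 15.2%, 5.31%, 6.30% and 8.51% in the same order. Genes of low level were thus called mostly at large ratios, where 152 of 157 called genes under 1 CPM were graded. Near-total genes lay in every range from 1 CPM up, with 8, 23, 10 and 2 in order of level.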
